A study of Mus musculus with 9 samples.

Results

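The BCL2 family of apoptosis regulators was followed through 10 genes of the 54347 in the gene table, chosen by symbol: *Bcl2*, *Bcl2l1*, *Mcl1*, *Bcl2a1b*, *Bax*, *Bak1*, *Bid*, *Bcl2l11*, *Bad* and *Bmf*. All 10 symbols were found, each in 1 row. Messenger RNA had been sequenced from 3 mouse myeloid cell lines, with 3 libraries per line, to compare cells with and without normal levels of the transcription factor PU.1. Hox-WT and Hox-URE are hematopoietic progenitor lines, made by immortalizing c-Kit-positive bone marrow progenitors with a Hoxb8 fusion protein that estradiol keeps active. Hox-WT derives from 1 wild-type animal. Hox-URE derives from 1 animal of genotype UREd/d, without the upstream regulatory element (URE) that enhances the PU.1 gene, *Spi1*. URE-AML, also UREd/d, is a line of leukemic blasts from a diseased mouse, described by the labels as AML blast-like. All 3 lines were grown with 10 ng/ml each of IL-3, IL-6 and SCF, 20% serum and, by the labels, 1 µM estradiol, for which the study's methods give another dose. Each genotype and stage is 1 line, so genotype, mouse of origin and stage cannot be told apart. The study describes URE-AML as established from blasts by culture with IL-3. The way a line was made thus also cannot be told apart from these in comparisons of URE-AML with a Hox line. No source says whether a line's libraries are separate cultures, and p-values then measure only the spread between these libraries, which may be technical.

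BCL2 family proteins decide whether the outer mitochondrial membrane is opened, the step at which a cell commits to the intrinsic path of apoptosis. BAX and BAK1 are the effectors that form the openings, the antiapoptotic members BCL2, BCL-XL (*Bcl2l1*), MCL1 and A1 hold them in check, and the BH3-only members BIM (*Bcl2l11*), BID, BAD and BMF start the process or block the antiapoptotic members. In myeloid progenitors, MCL1 is known as a short-lived survival factor that cytokines keep high, and BIM as a mediator of death when cytokines are withdrawn.

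Library totals were 20331064 to 28588718 counts. At these depths 3 counts, the limit that a count of 0 allows, stood at 0.104 to 0.153 CPM (counts per 1000000 counts of the library, also scaled for library composition), which covers counting error only. *Spi1* had 2791 to 2932 counts for Hox-WT, 0 to 1 for Hox-URE and 62 to 148 for URE-AML. Neutrophil markers (8 listed) summed to 4012 to 6863 CPM for Hox-WT, 134 to 144 for Hox-URE and 9142 to 20868 for URE-AML. In Hox-URE, 4 of the 8 (*Ngp*, *Ltf*, *Camp* and *S100a9*) were at or under 3 counts in every library. Mast cell or basophil markers (5 listed) summed to 483 to 838, 1022 to 4805 and 31.3 to 61.6 CPM in the same order, with *Fcer1a* at or under 3 counts in both Hox lines. Progenitor markers (5 listed) summed to 2152 to 2458 CPM for Hox-WT, 1032 to 1556 for Hox-URE and 272 to 313 for URE-AML, where *Cd34* was at or under 3 counts. Monocyte or macrophage markers (6 listed) summed to 300.1 to 308 CPM for Hox-WT, 842 to 944 for Hox-URE and 15.9 to 29.2 for URE-AML, with *Csf1r* at or under 3 counts in both UREd/d lines. Lymphoid markers (5 listed) summed to at most 2.71 CPM in a library, erythroid markers (4 listed) to at most 13.6 CPM and megakaryocyte markers (3 listed) to at most 56.3 CPM. The part of these markers in the differences below was not tested.

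Calls were made at an adjusted p under 0.05 together with a fold change above 1.5, by edgeR's quasi-likelihood test with Benjamini-Hochberg adjustment over the 13082 genes tested. Of the 10 members, 9 passed the filter on low counts, and *Bcl2a1b* did not. In Hox-URE relative to Hox-WT, 2 members were called higher (*Bcl2* and *Bcl2l1*) and 0 lower, beside 21.3% of all tested genes called higher and 15.9% lower. At an unadjusted p under 0.05, 2 members were lower (*Bak1* and *Bcl2l11*), neither by 1.5-fold, and DESeq2 also called 0 lower. The libraries of the lines did not overlap for 6 members, against 60.3% of all tested genes. In URE-AML relative to Hox-WT, 3 members were called higher (*Bcl2*, *Bcl2l1* and *Bcl2l11*) and 0 lower, where 23% of genes were called higher and 20.2% lower. At an unadjusted p under 0.05, 2 members were lower (*Bak1* and *Bid*), neither by 1.5-fold, and DESeq2 called 0 lower here too. Libraries did not overlap for 7 members, against 67.6% of genes. In URE-AML relative to Hox-URE, 2 members were called higher (*Bcl2l11* and *Bmf*) and 2 lower (*Bcl2* and *Bcl2l1*), where 20.3% of genes were called higher and 22.4% lower. Libraries did not overlap for 6 members, against 62.8% of genes. The median log2 fold change of the 9 members was -0.11, 0.57 and -0.02 in these 3 comparisons, in which the median over all tested genes was 0.00. The comparisons share the libraries of each line, so their values are given side by side and not as independent results.

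**Figure D1:**
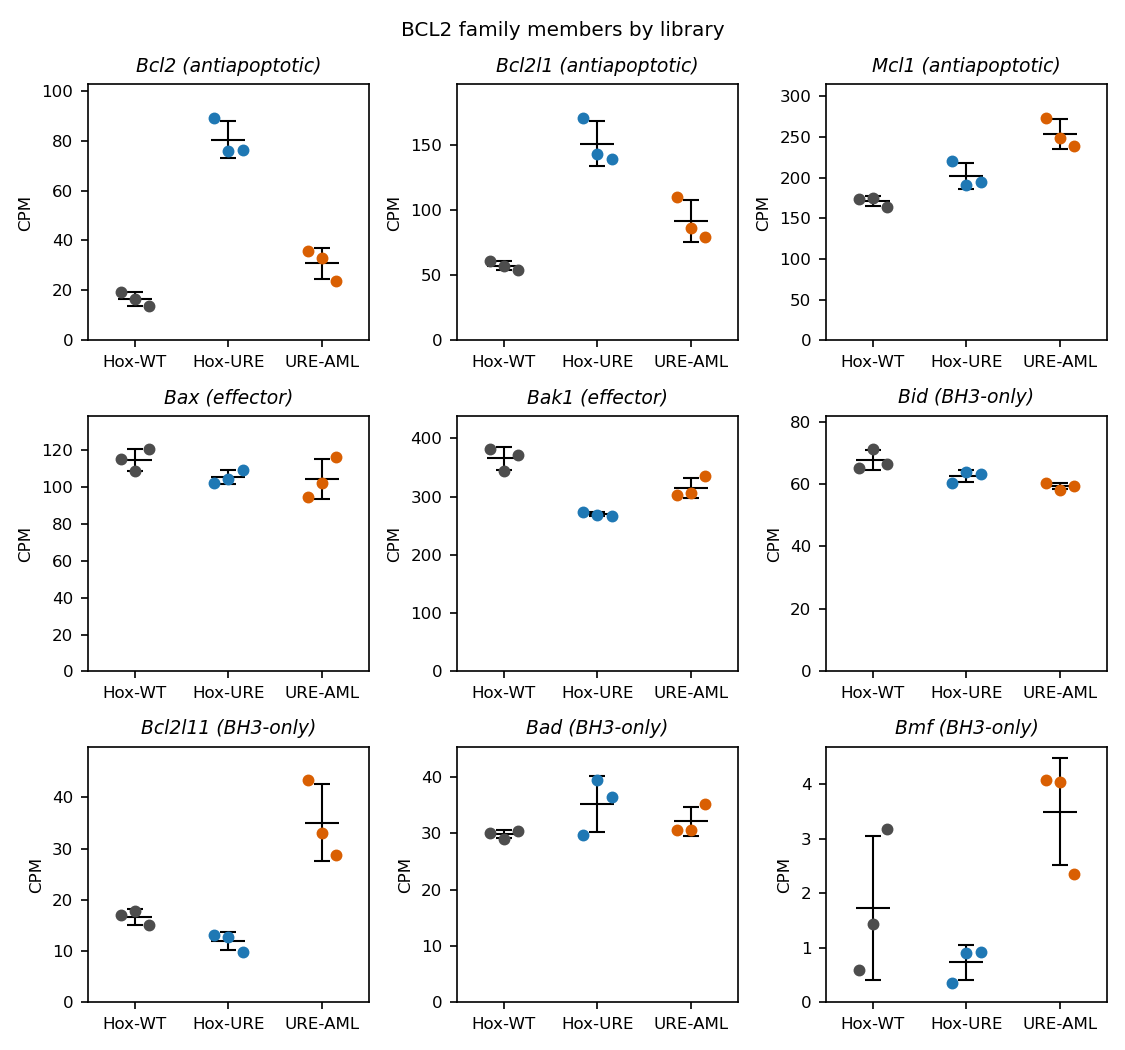
CPM of the 9 tested members in each library, one panel per gene with its own axis from 0; points are libraries 1 to 3 of a line from left to right, and bars are the mean ± SD. *Bcl2* and *Bcl2l1* were highest in Hox-URE, and *Mcl1*, *Bcl2l11* and *Bmf* had their highest means in URE-AML. *Mcl1*, *Bax*, *Bak1*, *Bid* and *Bad* were called in none of the 3 comparisons.

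Among the tested antiapoptotic members, *Bcl2*, whose product holds BH3-only proteins and effectors at the mitochondrial and endoplasmic reticulum membranes, had the largest difference between the Hox lines. It lies on chromosome 1, 106538178 to 106714274 of GRCm38, on the minus strand. The Hox-WT libraries 1, 2 and 3 had 19.6, 16.5 and 13.9 CPM, the Hox-URE libraries 89.1, 75.8 and 76.3, and the URE-AML libraries 35.8, 32.9 and 23.9. No library of one line overlapped with another line, and URE-AML lay between the Hox lines. In bulk RNA, fewer cells that express a gene and less of its RNA per cell cannot be told apart. *Bcl2* rose in Hox-URE relative to Hox-WT by 2.27 ± 0.18 (log2, SE, adjusted p = 3.39e-06) and in URE-AML relative to Hox-WT by 0.89 ± 0.17 (SE, adjusted p = 0.00123). Its level fell by 1.38 on the log2 scale in URE-AML relative to Hox-URE (SE 0.17, adjusted p = 6.41e-05). Each of these calls held in all 20 alternatives.

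*Bcl2l1*, the gene of BCL-XL (chromosome 2, 152780668 to 152831728, minus strand), took the same order of lines at a smaller distance. Its libraries had 60.9, 57.3 and 54.1 CPM in Hox-WT, 171, 143 and 139 in Hox-URE, and 110, 86.1 and 79.6 in URE-AML. The lines did not overlap. *Bcl2l1* rose by 1.39 ± 0.13 (log2, SE, adjusted p = 1.49e-05) in Hox-URE and by 0.68 ± 0.13 (SE, adjusted p = 0.00131) in URE-AML, both against Hox-WT, and between URE-AML and Hox-URE the difference was -0.72 ± 0.13 (SE, adjusted p = 0.000922). Without URE-AML library 1 the second of these was 0.53, short of a 1.5-fold change. In a test against a fold change of 1.5, neither difference of URE-AML was called (edgeR glmTreat adjusted p = 0.238 against Hox-WT and 0.161 against Hox-URE).

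*Mcl1* (chromosome 3, 95658788 to 95663176, plus strand) was highest in URE-AML. Its libraries had 174, 176 and 164 CPM in Hox-WT, 221, 191 and 195 in Hox-URE, and 274, 249 and 239 in URE-AML. The 3 lines did not overlap. The log2 fold change in URE-AML relative to Hox-WT was 0.57 ± 0.09 (SE, adjusted p = 0.000358), short of 1.5-fold, and without URE-AML library 3 it was 0.61, past it (adjusted p = 0.000888). It was 0.24 ± 0.09 (SE, adjusted p = 0.0458) in Hox-URE relative to Hox-WT and 0.33 ± 0.09 (SE, adjusted p = 0.00998) between URE-AML and Hox-URE, so neither reached the fold change asked for.

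*Bcl2a1b*, 1 of the mouse genes of A1, was close to absent. It had 0, 3 and 0 counts in Hox-WT, 2, 0 and 0 in Hox-URE, and 0, 1 and 0 in URE-AML, at or under the limit that a count of 0 allows, so no fold is given. The gene is hard to count by itself. Of its 787 different 31-base words, 88.8% also occur in transcripts of other genes, 72.4% in *Bcl2a1d* and 56.7% in *Bcl2a1a*, so reads may be split between these copies on chromosome 9. *Bcl2a1a* had 9, 17 and 7 counts in Hox-WT and 0 in every library of the other lines, and *Bcl2a1d* had 18, 11 and 6 in Hox-WT, 3, 0 and 0 in Hox-URE, and 4, 0 and 0 in URE-AML. Summed over the 3 copies, an alternative that avoids the split, Hox-WT had 27, 31 and 13 counts, Hox-URE 5, 0 and 0, and URE-AML 4, 1 and 0. The summed gene was called lower in both UREd/d lines than in Hox-WT, at an adjusted p of 0.00942 for Hox-URE and 0.00932 for URE-AML.

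Promoters of the family were searched for 2 short motifs, TGTGGT, the core bound by RUNX factors, and GAGGAA, the core bound by PU.1, on both strands and in the 250 bases before each start site that RefSeq gives on GRCm38.p6. Neither motif holds the other. Of 32851 promoters of all genes, 14% held TGTGGT and 23.3% held GAGGAA. The promoters shown are that of *Bcl2* and one of *Bcl2l1* because these genes took the same order of lines, one of *Bmf* because it held the most TGTGGT matches in the family, and that of *Bcl2a1a* because the A1 copies held the most GAGGAA matches. They run 5′ to 3′ on the strand of the gene, with matches on either strand in capitals.
Bcl2, chr1:106714291-106714540, minus strand: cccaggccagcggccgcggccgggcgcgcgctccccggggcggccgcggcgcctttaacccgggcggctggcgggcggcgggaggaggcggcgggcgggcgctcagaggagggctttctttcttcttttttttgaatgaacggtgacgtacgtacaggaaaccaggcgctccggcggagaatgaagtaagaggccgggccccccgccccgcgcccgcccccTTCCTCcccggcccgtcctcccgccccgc
Bcl2l1, chr2:152831729-152831978, minus strand: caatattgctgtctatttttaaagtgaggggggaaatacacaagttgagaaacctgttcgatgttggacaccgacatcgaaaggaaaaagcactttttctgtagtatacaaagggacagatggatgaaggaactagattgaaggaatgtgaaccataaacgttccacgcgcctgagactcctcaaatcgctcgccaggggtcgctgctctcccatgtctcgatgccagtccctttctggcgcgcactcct
Bmf, chr2:118547600-118547849, minus strand: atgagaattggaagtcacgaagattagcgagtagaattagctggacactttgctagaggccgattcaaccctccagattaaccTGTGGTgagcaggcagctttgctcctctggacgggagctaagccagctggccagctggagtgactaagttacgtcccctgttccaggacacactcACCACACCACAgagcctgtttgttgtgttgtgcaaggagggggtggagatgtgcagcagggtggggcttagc
Bcl2a1a, chr9:88956670-88956919, plus strand: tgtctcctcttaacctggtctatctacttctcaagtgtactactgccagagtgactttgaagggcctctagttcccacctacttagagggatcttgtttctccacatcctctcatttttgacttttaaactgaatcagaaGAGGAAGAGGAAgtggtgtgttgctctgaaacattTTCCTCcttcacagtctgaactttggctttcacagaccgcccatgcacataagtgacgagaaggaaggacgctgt
*Bcl2* held 1 GAGGAA match and 0 TGTGGT matches. The 3 listed promoters of *Bcl2l1*, that of *Mcl1*, both of *Bcl2l11* and that of *Bax* held neither. *Bak1* held 1 of each and *Bid* 1 GAGGAA match. The promoter of *Bmf* shown here held 3 TGTGGT matches, another held 1 GAGGAA match and the third held neither. One of the 2 *Bad* promoters held 2 GAGGAA matches. *Bcl2a1a* and *Bcl2a1b* held 3 GAGGAA matches each and *Bcl2a1d* 2. A match is a string of letters in this window and not a binding site.

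Neither effector gene was called in any comparison. *Bak1*, whose product sits in the outer mitochondrial membrane (chromosome 17, 27019810 to 27029009, minus strand), had 382, 344 and 371 CPM in Hox-WT, 273, 269 and 268 in Hox-URE, and 303, 306 and 335 in URE-AML. Hox-WT was highest and Hox-URE lowest, with no overlap between any of the lines. The log2 fold change was -0.44 ± 0.08 (SE, adjusted p = 0.00129) in Hox-URE relative to Hox-WT, -0.22 (adjusted p = 0.0433) in URE-AML relative to Hox-WT and 0.22 (adjusted p = 0.0388) in URE-AML relative to Hox-URE, each short of a 1.5-fold change. *Bax*, whose product moves from the cytosol to mitochondria when a cell is stressed (chromosome 7, 45461697 to 45466898, minus strand), had 115, 108 and 121 CPM in Hox-WT, 102, 104 and 109 in Hox-URE, and 94.5, 102 and 116 in URE-AML. Its lines overlapped, and the log2 fold changes were -0.12, -0.14 and -0.02 in the 3 comparisons (adjusted p = 0.289, 0.226 and 0.906). With library totals as the only scaling the last of these was 0.10. Of the 31-base words of *Bax*, 9.89% are shared with the overlapping gene model *Gm45808*, which itself held 0 to 44 counts per library.

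Among the BH3-only genes *Bcl2l11*, the gene of BIM (chromosome 2, 128126038 to 128162547, plus strand), stood out in URE-AML. It had 17.1, 17.9 and 15 CPM in Hox-WT, 13.1, 12.7 and 9.91 in Hox-URE, and 43.4, 32.9 and 28.8 in URE-AML. All URE-AML libraries were above all Hox-WT libraries, which were above all Hox-URE libraries. *Bcl2l11* rose in URE-AML by 1.07 ± 0.17 (log2, SE, adjusted p = 0.000344) against Hox-WT and by 1.55 ± 0.17 (SE, adjusted p = 3.30e-05) against Hox-URE. In Hox-URE relative to Hox-WT it was -0.48 ± 0.17 (SE, adjusted p = 0.0378), short of 1.5-fold, and with library totals as the only scaling it was called (-0.59, adjusted p = 0.0189). The order of lines was thus the reverse of that of *Bcl2* between the Hox lines. The CPM of *Bcl2* divided by that of *Bcl2l11* was 0.997 ± 0.126 (SD, n = 3) for Hox-WT, 6.81 ± 0.869 for Hox-URE and 0.884 ± 0.0993 for URE-AML, a ratio of counts that is not corrected for gene length.

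*Bmf*, whose product is tethered to the cytoskeleton until it is released (chromosome 2, 118528757 to 118549687, minus strand), was the lowest of the tested members and had the largest relative spread among libraries of a line. It had 0.600, 1.43 and 3.18 CPM in Hox-WT, 0.364, 0.911 and 0.919 in Hox-URE, and 4.08, 4.04 and 2.36 in URE-AML, from 10 to 101 counts per library. Hox-WT overlapped with both other lines, while every URE-AML library was above every Hox-URE library. *Bmf* rose in URE-AML relative to Hox-URE by 2.27 ± 0.59 (log2, SE, adjusted p = 0.00742). Against Hox-WT the log2 fold change was -1.27 ± 0.59 (SE, adjusted p = 0.0958) in Hox-URE and 1.00 ± 0.54 (SE, adjusted p = 0.140) in URE-AML. Both moved with the Hox-WT libraries. The first was -1.67 and called without Hox-WT library 1 (adjusted p = 0.0233), and it was -0.50 without Hox-WT library 3 (adjusted p = 0.477). The second was 1.76 and called without Hox-WT library 3 (adjusted p = 0.0214), and it was 0.60 without Hox-WT library 1 (adjusted p = 0.332).

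*Bid* and *Bad* were not called in any comparison. *Bid*, which links death receptors to mitochondria (chromosome 6, 120891930 to 120916853, minus strand), had 65.1, 71.3 and 66.5 CPM in Hox-WT, 60.3, 63.8 and 63.3 in Hox-URE, and 60.3, 58.2 and 59.4 in URE-AML. All Hox-WT libraries were above those of the other lines, by little, and the log2 fold changes were -0.11, -0.19 and -0.07 (adjusted p = 0.245, 0.0620 and 0.444). The last was 0.04 with library totals as the only scaling. *Bad*, which growth factor signals keep inactive by phosphorylation (chromosome 19, 6941861 to 6951899, plus strand), had 30.1, 29 and 30.5 CPM in Hox-WT, 29.7, 39.4 and 36.4 in Hox-URE, and 30.6, 30.5 and 35.1 in URE-AML. Its Hox-URE libraries overlapped with both other lines, and the log2 fold changes were 0.24, 0.10 and -0.13 (adjusted p = 0.121, 0.480 and 0.373).

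**Figure D2:**
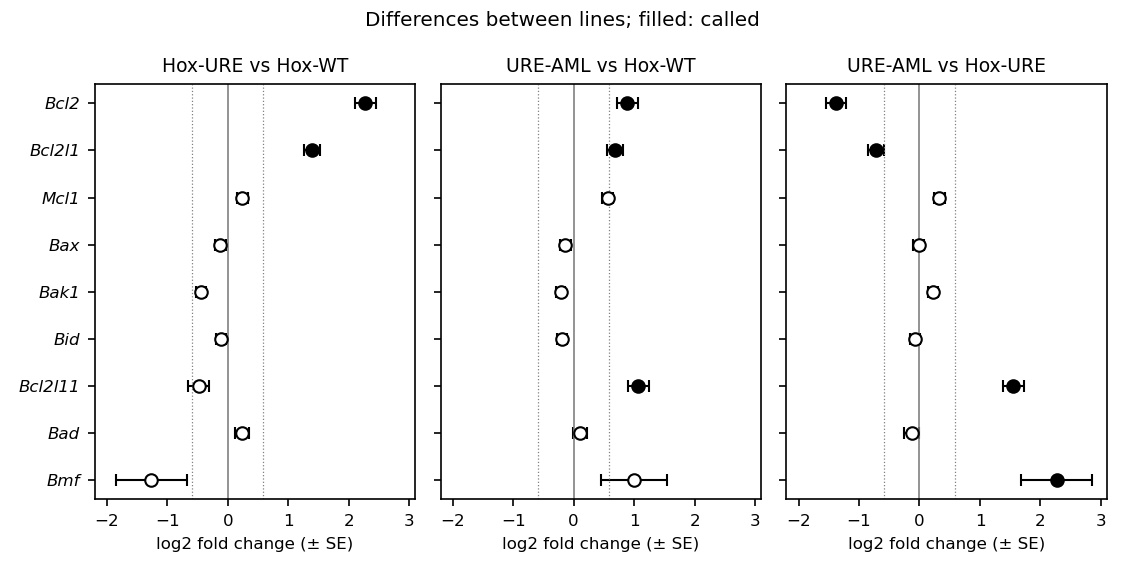
Log2 fold change ± SE of the 9 tested members in the 3 comparisons, from edgeR; filled points were called, and dotted lines mark a 1.5-fold change. *Bcl2* at 2.27 and *Bcl2l1* at 1.39 stood out in Hox-URE relative to Hox-WT, and *Bcl2l11* at 1.55 and *Bmf* at 2.27 in URE-AML relative to Hox-URE.

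To compare genes with each other, CPM was divided by the length of all annotated exons in kilobases. On this scale *Bak1* was highest in every line, at 152 ± 8.15 CPM per kilobase (SD, n = 3) for Hox-WT, 112 ± 1.20 for Hox-URE and 131 ± 7.39 for URE-AML. By this length *Mcl1* was the highest antiapoptotic gene in every line, at 50.1 ± 1.75, 59.2 ± 4.71 and 74.2 ± 5.24 CPM per kilobase. In Hox-WT the order of levels was *Bak1*, *Bax* (72.8 ± 3.88), *Mcl1*, *Bid* (19.1 ± 0.905), *Bcl2l1* (12.5 ± 0.732), *Bad* (11.7 ± 0.297), *Bcl2l11* (2.08 ± 0.186), *Bcl2* (1.82 ± 0.309) and *Bmf* (0.331 ± 0.251). Within it, *Bcl2l1* and *Bad*, and likewise *Bcl2l11* and *Bcl2*, did not differ beyond their SDs.

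In Hox-URE, *Bcl2l1* (32.9 ± 3.78 CPM per kilobase) stood above *Bid* (17.6 ± 0.531) and *Bad* (13.7 ± 1.95), and *Bcl2* (8.78 ± 0.820) above *Bcl2l11* (1.48 ± 0.219). In URE-AML, *Mcl1* and *Bax* (66.1 ± 6.92), *Bcl2l1* (20.0 ± 3.49) and *Bid* (16.7 ± 0.304), and *Bcl2l11* (4.37 ± 0.935) and *Bcl2* (3.37 ± 0.677) were 3 pairs of neighbours that did not differ beyond their SDs. These pairs depended on the length used. With the longest transcript as the length, all 5 pairs named in Hox-WT and URE-AML stood apart by more than their SDs. In URE-AML these were *Bax* above *Mcl1* (94.7 ± 9.91 against 74.2 ± 5.24), *Bcl2l1* above *Bid* (35.8 ± 6.23 against 24.6 ± 0.448) and *Bcl2l11* above *Bcl2* (6.96 ± 1.49 against 4.29 ± 0.862). In Hox-WT they were *Bcl2l1* above *Bad* (22.4 ± 1.31 against 19.5 ± 0.496) and *Bcl2l11* above *Bcl2* (3.31 ± 0.296 against 2.32 ± 0.394). With the same length *Bcl2l1* and *Mcl1* in Hox-URE did not differ beyond their SDs (58.7 ± 6.75 against 59.2 ± 4.71).

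**Figure D3:**
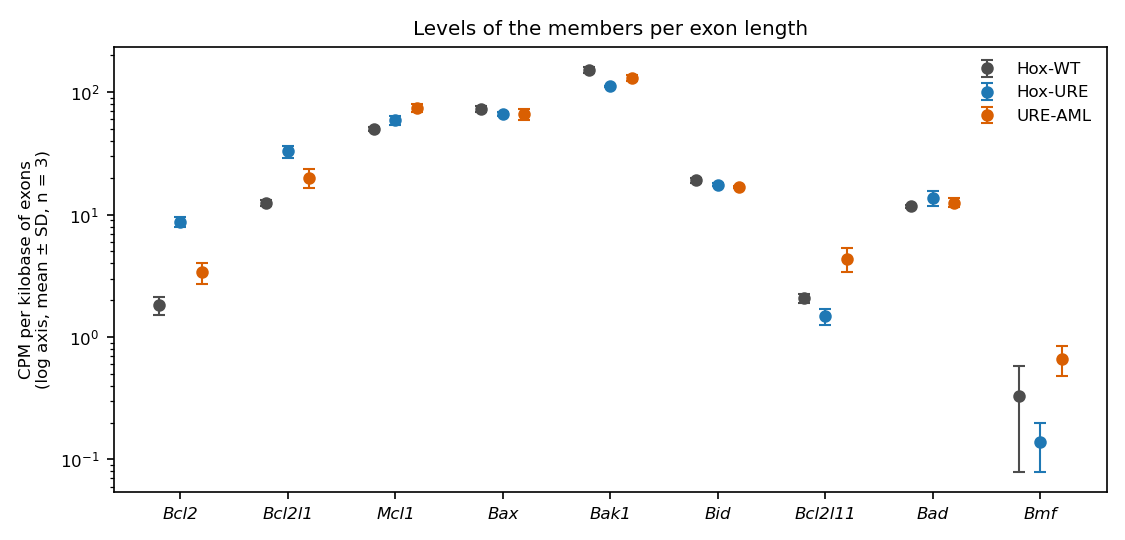
Level of the 9 tested members in CPM per kilobase of exons on a log axis, as the mean ± SD of 3 libraries in each line. *Bak1*, *Bax* and *Mcl1* had the highest levels in every line, and *Bcl2* stood at 1.82 for Hox-WT, 8.78 for Hox-URE and 3.37 for URE-AML.

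The sums by role describe the balance of messages among the 10 members only. The 4 antiapoptotic members summed to 64.5 ± 2.65 CPM per kilobase (SD, n = 3) for Hox-WT, 101 ± 9.31 for Hox-URE and 97.7 ± 9.29 for URE-AML, and both effectors to 225 ± 11.3, 179 ± 1.40 and 197 ± 14.2. The 4 BH3-only members summed to 33.1 ± 0.782, 33.0 ± 2.46 and 34.3 ± 0.997. That sum leaves out other BH3-only genes of the family, of which *Pmaip1* alone was at 5.68 ± 1.32 CPM per kilobase for Hox-WT, 19.9 ± 3.21 for Hox-URE and 0 for URE-AML. The antiapoptotic sum likewise leaves out *Bcl2l2*, at 3.15 ± 0.540, 6.29 ± 1.47 and 5.01 ± 0.676 in the same order. The antiapoptotic sum divided by the proapoptotic sum was 0.251 ± 0.0176 for Hox-WT, 0.476 ± 0.0507 for Hox-URE and 0.425 ± 0.0625 for URE-AML, and with the longest transcript as the length it was 0.243, 0.497 and 0.411. Its libraries ran from 0.233 to 0.268 for Hox-WT, 0.447 to 0.535 for Hox-URE and 0.363 to 0.488 for URE-AML, so the UREd/d lines overlapped each other and neither overlapped Hox-WT. These are messages and not protein, and the sums carry no test.

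The makeup of the antiapoptotic sum differed between the UREd/d lines, while the libraries of both overlapped in the size of the sum. The share of *Mcl1* in it was 77.7% ± 0.848 (SD, n = 3) for Hox-WT, 58.7% ± 0.863 for Hox-URE and 76.1% ± 1.83 for URE-AML. That of *Bcl2l1* was 19.4% ± 0.549, 32.6% ± 0.822 and 20.4% ± 1.57, and that of *Bcl2* was 2.81% ± 0.383, 8.71% ± 0.0131 and 3.43% ± 0.462. In Hox-URE the larger sum came with more *Bcl2* and *Bcl2l1*, and in URE-AML it kept a makeup near that of Hox-WT. With the longest transcript as the length the share of *Mcl1* was 67.0%, 45.9% and 65.1%.

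The 5 tested genes with profiles nearest to that of *Bcl2*, by the root mean square difference of centred log2 CPM over the 9 libraries, were *Prkar2b* (0.172), *Ano10* (0.223), *Zdhhc14* (0.224), *Angptl2* (0.236) and *Fn3krp* (0.247). *Prkar2b*, a regulatory subunit of protein kinase A, had mean levels of 117 CPM (Hox-WT), 471 CPM (Hox-URE) and 218 CPM (URE-AML). The 9 libraries share 3 lines, so this likeness rests mostly on 3 levels.

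The rest of the family was read from a list of 13 further genes, of which 9 were tested. Calls were 4 higher and 1 lower in Hox-URE relative to Hox-WT, 2 higher and 4 lower for URE-AML relative to Hox-WT, and in URE-AML relative to Hox-URE 1 higher and 4 lower. The shares over all tested genes were 21.3% higher and 15.9% lower, 23% and 20.2%, and 20.3% and 22.4% in these comparisons. Their median log2 fold change was 0.30, -0.04 and -0.33, beside 0.00 over all genes. With at least 10 counts asked for in every library, which leaves fewer of these genes tested, the calls were 1 higher and 0 lower, 1 and 1, and 0 and 1. The lower calls in Hox-URE relative to Hox-WT were 2 with library totals only, the replicate block or DESeq2, and 3 with no filter on low counts. In Hox-URE relative to Hox-WT the lower genes numbered 2 without URE-AML library 1, 2 or 3, Hox-URE library 1 or 2, or Hox-WT library 3. In URE-AML relative to Hox-WT the higher genes numbered 1 without URE-AML library 2 or Hox-WT library 3. *Bik* and *Bcl2l10* had 0 counts in all 9 libraries.

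*Pmaip1*, the gene of NOXA, a BH3-only protein that binds MCL1 and A1 (chromosome 18, 66458533 to 66465565, plus strand), had 353, 551 and 395 counts in Hox-WT, 1252, 1523 and 1069 in Hox-URE, and 0 in each URE-AML library. Its level rose in Hox-URE relative to Hox-WT by 1.81 ± 0.19 (log2, SE, adjusted p = 0.000110). The URE-AML level was lower at least 109-fold compared with Hox-WT and at least 381-fold compared with Hox-URE, from a floor of 3 counts in the shallowest URE-AML library (adjusted p = 4.49e-07 and 1.32e-07). *Hrk*, a BH3-only gene known for low levels while growth factors are present (chromosome 5, 118164648 to 118189478, plus strand), had 7, 11 and 8 counts in Hox-WT, 72, 36 and 21 in Hox-URE, and 0 in each URE-AML library. It rose in Hox-URE by 2.47 ± 0.47 (log2, SE, adjusted p = 0.00252) and its URE-AML level was lower at least 2.18-fold compared with Hox-WT and at least 12.1-fold compared with Hox-URE (adjusted p = 0.00156 and 7.60e-05). Both genes thus stood highest in Hox-URE and were not detected in URE-AML at this depth.

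*Bbc3*, the gene of the BH3-only protein PUMA, a p53 target (chromosome 7, 16308393 to 16318205, plus strand), had 8.02, 9.35 and 10.5 CPM in Hox-WT, 13.6, 7.83 and 9.29 in Hox-URE, and 5.73, 6.09 and 6.0 in URE-AML. The Hox lines overlapped and URE-AML was below both. *Bbc3* fell by 0.64 on the log2 scale in URE-AML relative to Hox-WT (SE 0.21, adjusted p = 0.0233) and by 0.79 against Hox-URE (SE 0.21, adjusted p = 0.00875). The first call was lost without URE-AML library 1, 2 or 3 or Hox-WT library 2 or 3 (adjusted p = 0.0624, 0.0533, 0.0547, 0.0551 and 0.0761), and the second without Hox-URE library 1, where the log2 fold change was -0.53. Neither was called when tested against a fold change of 1.5 (glmTreat adjusted p = 0.404 and 0.173).

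*Bok*, an effector-like member (chromosome 1, 93685660 to 93695764, plus strand), had 11, 14 and 11 counts in Hox-WT, 4, 6 and 0 in Hox-URE, and 83, 71 and 44 in URE-AML. URE-AML was above both other lines, which did not overlap either. *Bok* rose in URE-AML by 2.72 ± 0.51 (log2, SE, adjusted p = 0.00110) against Hox-WT and by 4.33 ± 0.60 (SE, adjusted p = 0.000148) against Hox-URE. The log2 fold change of Hox-URE relative to Hox-WT was -1.61 ± 0.65 (SE, adjusted p = 0.0586), not called. It was called without Hox-URE library 2 (-2.33, adjusted p = 0.0350), with library totals only (-1.71, adjusted p = 0.0457), with the replicate block (-1.72, adjusted p = 0.0417) and by DESeq2 (-1.64, adjusted p = 0.0329).

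*Bcl2l2*, the gene of the antiapoptotic protein BCL-W (chromosome 14, 54883377 to 54888234, plus strand), had 14.6, 16.2 and 11.4 CPM in Hox-WT, 35.5, 25.2 and 23.4 in Hox-URE, and 20.9, 25.8 and 20.3 in URE-AML. Hox-WT was below both UREd/d lines, which overlapped. It rose by 1.00 ± 0.19 (log2, SE, adjusted p = 0.00145) in Hox-URE and by 0.67 ± 0.19 (SE, adjusted p = 0.0120) in URE-AML. The second call was lost without URE-AML library 2 (0.55, adjusted p = 0.0509) or Hox-WT library 3 (0.53, adjusted p = 0.0535), and when tested against a fold change of 1.5 (glmTreat adjusted p = 0.339). Of its 31-base words 12.6% are shared with the overlapping gene model *Gm20521*, which held 0 to 26 counts per library.

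*Bcl2l14* and *Bcl2l15*, less studied members, each had over 6 counts per library in 1 Hox line and not in the other lines. *Bcl2l14* (chromosome 6, 134396318 to 134438736, plus strand) had 47, 52 and 41 counts in Hox-WT, 1, 2 and 0 in Hox-URE, and 3, 1 and 1 in URE-AML. Compared with Hox-WT, its summed rate was 39.7-fold lower in Hox-URE (95% exact counting interval 13.3 to 195) and 23.1-fold lower in URE-AML (9.69 to 72.4). Such an interval covers counting error only and not the spread between libraries. The edgeR test, which is of the fitted fold change and not of this ratio, gave an adjusted p of 5.10e-05 and 6.08e-05. *Bcl2l15* (chromosome 3, 103832601 to 103854618, plus strand) had 1, 2 and 0 counts in Hox-WT, 42, 46 and 34 in Hox-URE, and 1, 0 and 5 in URE-AML. Compared with Hox-WT, its summed rate was 47.8-fold higher in Hox-URE (95% exact counting interval 16 to 235), and it was 19.7-fold lower in URE-AML compared with Hox-URE (8.81 to 54.8). The edgeR test of the fitted fold changes gave an adjusted p of 0.000279 and 0.000587. Reads of *Bcl2l15* may be split with the overlapping gene model *Gm43064*, with which 20.2% of its 31-base words are shared and which held 0 to 33 counts per library.

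*Bcl2l12*, at 3.6 to 6.95 CPM, and *Bcl2l13*, a mitochondrial protein linked to mitophagy at 72.9 to 110 CPM, were not called in any comparison. *Bcl2l13* differed by 0.30 (log2, adjusted p = 0.0465) in Hox-URE and by 0.37 (adjusted p = 0.0185) in URE-AML relative to Hox-WT, short of a 1.5-fold change.

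**Figure D4:**
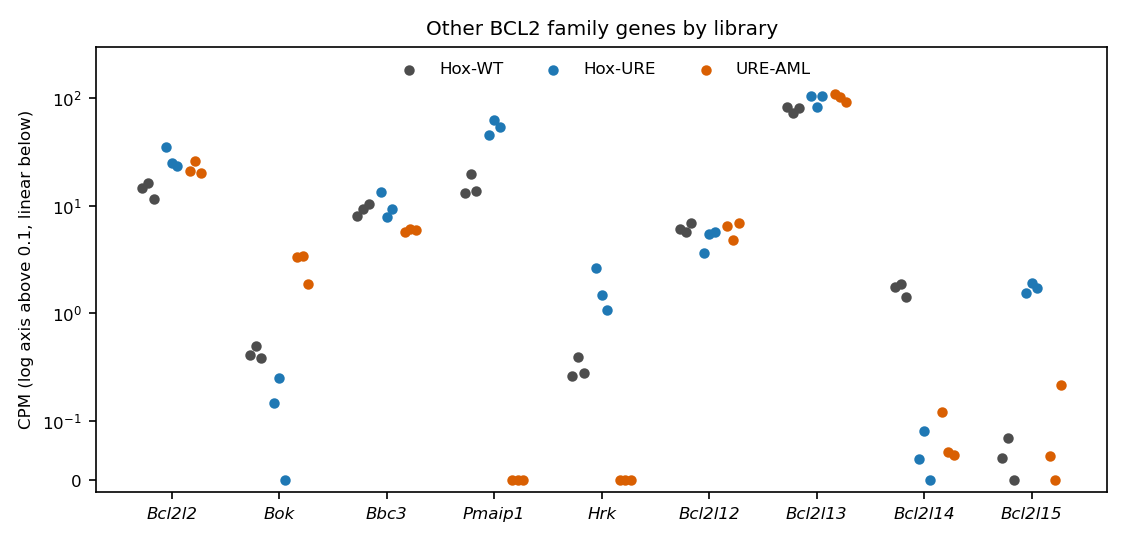
CPM of the 9 other tested BCL2 family genes in each library, on an axis that is logarithmic above 0.1 and linear below. *Pmaip1* and *Hrk* lie at 0 in all 3 URE-AML libraries and are highest in Hox-URE, while *Bok* is highest in URE-AML.

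Downstream of the family, 18 genes of the mitochondrial death pathway were listed and all were tested. Calls were 0 higher and 3 lower in Hox-URE relative to Hox-WT, 0 higher and 1 lower for URE-AML relative to Hox-WT, and for URE-AML relative to Hox-URE 3 higher and 1 lower. The background shares were 21.3% higher and 15.9% lower, 23% and 20.2%, and 20.3% and 22.4%, in this order of comparisons, for this list and those that follow. Over the list the median log2 fold change was -0.21, -0.01 and 0.20, beside 0.00 over all genes in each comparison. Tested against a fold change of 1.5 (glmTreat), the lower calls in Hox-URE relative to Hox-WT were 2 and the higher calls for URE-AML relative to Hox-URE 2. The outer membrane channel gene *Vdac2* was among the genes called lower in Hox-URE (-0.67, adjusted p = 0.00159). *Htra2*, a protease released from mitochondria, and *Opa1*, which shapes the cristae, were among the genes that rose in URE-AML relative to Hox-URE, by 0.89 and 0.59 (adjusted p = 7.45e-06 and 0.000168). In URE-AML relative to Hox-WT the count of lower genes was 2 without URE-AML library 1 or Hox-WT library 2, and that of higher genes was 1 without Hox-WT library 1.

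Enzymes and tethers that act on MCL1, BIM or BMF were listed as 13 genes, of which 12 were in the table and 11 were tested. The counts were 1 higher and 2 lower in Hox-URE relative to Hox-WT, 1 higher and 2 lower for URE-AML relative to Hox-WT, with 0 higher and 1 lower for URE-AML relative to Hox-URE. *Fbxw7*, the substrate receptor of an SCF ubiquitin ligase of MCL1, was lower by -0.92 ± 0.18 (log2, SE, adjusted p = 0.00191) in Hox-URE and -0.88 ± 0.18 (SE, adjusted p = 0.00205) in URE-AML, both against Hox-WT. *Trib1*, a pseudokinase that brings substrates to the COP1 ligase, was higher in the same comparisons by 2.07 ± 0.15 (SE, adjusted p = 2.04e-06) and 1.87 ± 0.15 (SE, adjusted p = 2.37e-06). Its relative *Trib2* had 35.5 ± 2.54 CPM (SD, n = 3) for Hox-WT, 18.2 ± 1.17 for Hox-URE and 0 to 0.363 for URE-AML, and was called lower in all 3 comparisons (adjusted p = 0.00567, 8.19e-08 and 2.75e-07). The median log2 fold change of the list was -0.07, -0.07 and -0.20. Tested against a fold change of 1.5 (glmTreat), 0 genes were called lower in Hox-URE relative to Hox-WT and 1 in URE-AML relative to Hox-WT, so that the calls of *Fbxw7* and *Trib2* in Hox-URE were lost. With at least 10 counts asked for in every library, 1 gene was called lower in each of these comparisons. In URE-AML relative to Hox-URE 0 were then called lower, because *Trib2* did not pass this filter.

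Kinases of BAD and the 14-3-3 proteins that hold phosphorylated BAD were listed as 16 genes, all tested. The counts were 4 higher and 1 lower in each comparison with Hox-WT, with 4 higher and 2 lower for URE-AML relative to Hox-URE. *Pim3*, a cytokine-induced kinase, was higher in both UREd/d lines, by 1.06 ± 0.28 (log2, SE, adjusted p = 0.00961) in Hox-URE and 1.10 ± 0.28 (SE, adjusted p = 0.00717) in URE-AML. *Pim2* was higher in Hox-URE by 0.81 ± 0.16 (SE, adjusted p = 0.00171) and fell by 1.39 in URE-AML relative to Hox-URE (adjusted p = 4.78e-05). The 14-3-3 gene *Ywhaz* was higher in URE-AML than in Hox-WT, by 0.97, and than in Hox-URE, by 0.80 (adjusted p = 2.27e-05 and 8.89e-05). *Ywhae*, another 14-3-3 gene, stood at -0.61 in Hox-URE against Hox-WT, a lower call, and rose by 0.87 in URE-AML relative to Hox-URE (adjusted p = 0.00203 and 0.000172). *Ywhah* rose by 0.60 in Hox-URE against Hox-WT (adjusted p = 0.000488). *Prkaca*, a catalytic subunit of protein kinase A, was higher in URE-AML by 0.72 against Hox-WT and 0.92 against Hox-URE (adjusted p = 0.0221 and 0.00637). *Sfn*, 14-3-3 sigma, went from 9.85 ± 0.432 CPM (SD, n = 3) for Hox-WT to 18.5 ± 2.87 for Hox-URE and 0.981 ± 0.255 for URE-AML, and was called in all 3 comparisons (adjusted p = 0.00152, 5.19e-07 and 1.13e-07). The list's median log2 fold change was -0.08, 0.13 and 0.15. Tested against a fold change of 1.5 (glmTreat), the higher calls were 1, 2 and 2 in the 3 comparisons, in place of 4 each. The lower call of *Ywhae* in Hox-URE relative to Hox-WT was then lost. The count of lower genes in that comparison also moved with no filter on low counts and in the fit on 6 libraries. With upper-quartile scaling or library totals only, the calls in Hox-URE relative to Hox-WT were 3 higher and 2 lower. Leaving out 1 library moved its counts of lower genes in both comparisons with Hox-WT. In Hox-URE relative to Hox-WT the count was 0 without Hox-URE library 1, and 2 without URE-AML library 1, 2 or 3, Hox-URE library 3 or Hox-WT library 2. In URE-AML relative to Hox-WT it was 2 without URE-AML library 1 or 2, Hox-URE library 1, 2 or 3, or Hox-WT library 1 or 3.

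Transcription factors known to act on BH3-only or BCL2 genes were listed as 13 genes, all tested. The counts were 3 higher and 3 lower in Hox-URE relative to Hox-WT, 3 higher and 4 lower for URE-AML relative to Hox-WT, with 2 higher and 5 lower for URE-AML relative to Hox-URE, with *Spi1*, whose enhancer is deleted, among them each time. *Foxo1* was higher in both UREd/d lines, by 1.90 ± 0.22 (log2, SE, adjusted p = 6.27e-05) in Hox-URE and 1.13 ± 0.22 (SE, adjusted p = 0.00147) in URE-AML. *Ddit3*, the stress-induced factor CHOP, rose by 1.56 in Hox-URE against Hox-WT and fell by 1.74 in URE-AML against Hox-URE (adjusted p = 0.00671 and 0.00352). *Foxo3*, a FOXO factor known to activate *Bcl2l11* and *Bbc3*, fell by 1.58 in URE-AML relative to Hox-WT and by 1.80 against Hox-URE (adjusted p = 8.62e-07 and 3.81e-07). *Jun* was higher in Hox-URE by 0.84 and in URE-AML by 1.88, both against Hox-WT (adjusted p = 0.00248 and 7.96e-06). *Stat5a*, which carries cytokine signals to *Bcl2l1* and *Mcl1*, fell by 1.97 in URE-AML relative to Hox-WT and by 1.49 against Hox-URE (adjusted p = 6.54e-06 and 5.34e-05). *Myb*, which activates *Bcl2*, was lower in both UREd/d lines, by -0.84 and -0.76 (adjusted p = 0.000124 and 0.000180). The median log2 fold change of the list was 0.06, -0.48 and 0.04. Tested against a fold change of 1.5 (glmTreat), the calls were 2 higher and 2 lower, 2 and 3, and 2 and 4.

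Partners of BCL2 in autophagy and at the endoplasmic reticulum were listed as 10 genes, all tested. The counts were 2 higher and 1 lower, 4 higher and 2 lower, and 2 higher and 2 lower in the 3 comparisons. *Tmbim6*, a membrane protein that restrains cell death at the endoplasmic reticulum, was higher in both UREd/d lines, by 1.23 ± 0.13 (log2, SE, adjusted p = 2.94e-05) in Hox-URE and 0.98 ± 0.13 (SE, adjusted p = 9.64e-05) in URE-AML. *Bnip3*, a mitophagy receptor, was lower in Hox-URE by -1.0 ± 0.19 (SE, adjusted p = 0.00127) and higher in URE-AML by 0.67 ± 0.18 (SE, adjusted p = 0.00904). Its relative *Bnip3l* was higher in URE-AML by 1.05 against Hox-WT and 0.73 against Hox-URE (adjusted p = 0.000733 and 0.00644). *Itpr2* was higher than in Hox-WT by 0.72 in Hox-URE and 0.84 in URE-AML (adjusted p = 0.00903 and 0.00329). *Itpr1* fell by 1.21 in URE-AML against Hox-WT and by 0.97 against Hox-URE (adjusted p = 1.11e-05 and 5.80e-05). *Itpr3*, like these a calcium channel of the endoplasmic reticulum, fell by 2.89 in URE-AML relative to Hox-WT and by 3.39 against Hox-URE (adjusted p = 4.53e-08 and 2.30e-08). The median log2 fold change was 0.13, 0.11 and -0.20. Tested against a fold change of 1.5 (glmTreat), the higher calls were 1, 2 and 1. Without Hox-URE library 3 the count of higher genes in Hox-URE relative to Hox-WT was 1, and without Hox-URE library 1 that in URE-AML relative to Hox-URE was 1.

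**Figure D5:**
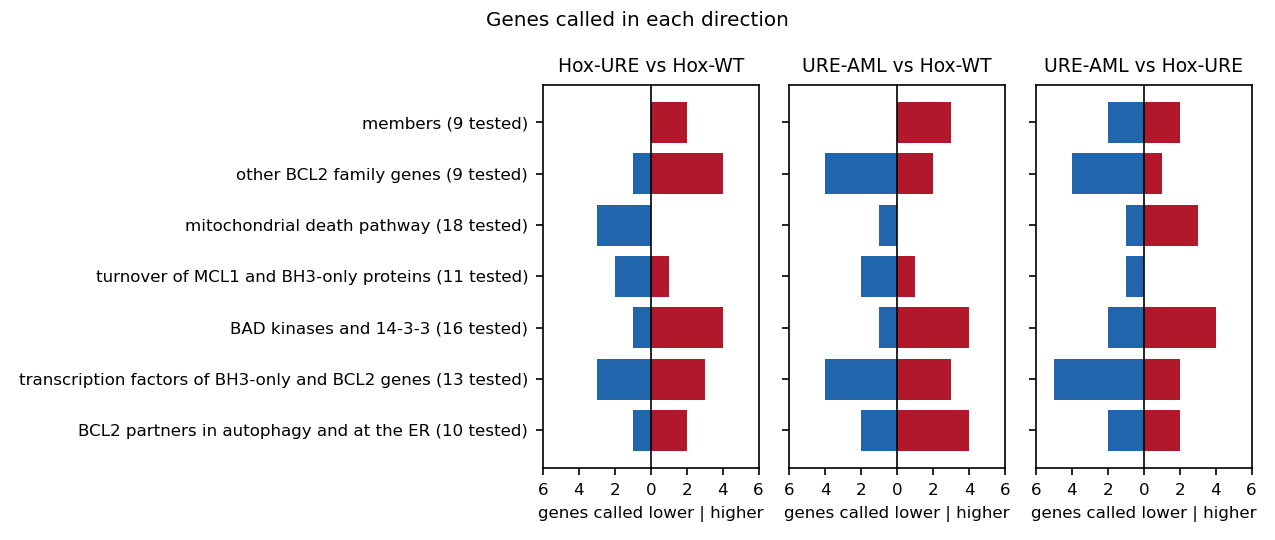
Number of genes called lower (left of 0) and higher (right of 0) among the 9 tested members and in each of the 6 lists, in the 3 comparisons. The members had 0 lower calls in both comparisons with Hox-WT, beside 15.9% and 20.2% of all tested genes called lower. The 13 transcription factors had 5 lower calls in URE-AML relative to Hox-URE, beside 22.4% of all tested genes.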

How the data were processed

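Strand-specific poly(A) RNA-seq libraries (3 per line) were compared. According to the labels and the study's methods, the authors quantified reads against the mouse transcriptome (GRCm38) with salmon and used tximport to sum transcripts per gene. The deposited table gives these estimated counts as whole numbers. The annotation release, the salmon version and any length scaling are not given in the sources used here. All sample columns of the table were used (0 left out).

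From these counts, genes with low values were removed with filterByExpr (minimum count 10), which left 13082 genes and took away 0.0499% of the counts. Libraries were scaled with trimmed mean of M values factors (0.938 to 1.04), and all 9 were fitted together with the line as the only factor, by the quasi-likelihood F test of edgeR 4.0.16 in R 4.3.3. Adjusted p-values are Benjamini-Hochberg over all genes tested, and calls need an adjusted p under 0.05 with a fold change above 1.5. Dividing the log2 fold change by the root of F gave the SE. The biological coefficient of variation was 0.173. Coordinates and exon lengths came from GENCODE on GRCm38, matched for 54094 of 54347 gene identifiers, and promoters from RefSeq on GRCm38.p6. The scripts were tested on simulated data. Named genes were the 10 members, the other listed family genes, *Spi1*, the 5 genes nearest in profile to *Bcl2* and, per list and comparison, the 2 called genes with the largest and the 2 with the smallest log2 fold change. Some genes that this rule names are not reported here. The members and lists were chosen with earlier results of these data known. Alternatives were other scalings, other filters on low counts, DESeq2 1.42.0, fits on 6 libraries, a replicate block, each library left out, other thresholds, summed A1 copies and another gene length.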

Additional observations from a re-analysis of the deposited data

How the results depend on the processing

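No log2 fold change of a member that was called changed sign under any alternative. Of 540 member log2 fold changes under alternatives, 526 kept their side of the threshold, 11 moved past it and 3 fell short of it. The members called lower in Hox-URE relative to Hox-WT numbered 0, and 1 with library totals only, 1 with A1 copies summed, 2 with no fold threshold, and 0 to 1 with a library left out. Those called lower in URE-AML relative to Hox-WT numbered 0, and 1 with A1 copies summed or with no fold threshold. Against Hox-WT the members called higher numbered 2 in Hox-URE and 3 in URE-AML. Over the alternatives these ran from 2 to 3 and from 2 to 4. Members called higher in URE-AML relative to Hox-URE numbered 2, and 4 with no fold threshold, and those called lower 2, and 1 when tested against a fold change of 1.5 (glmTreat). Over the alternatives the counts of all genes moved too. Genes called lower ran from 1335 to 3294, 1711 to 3641 and 1885 to 3801 in the 3 comparisons, beside 2084, 2637 and 2929. Genes called higher ran from 1841 to 3642, 1891 to 3908 and 1668 to 3785, beside 2789, 3011 and 2662. The added calls without a fold threshold were genes under 1.5-fold by the construction of that alternative. For the other moves the cause was not tested.

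With library totals as the only scaling the median of all genes moved by -0.108 in Hox-URE relative to Hox-WT and by 0.111 in URE-AML relative to Hox-URE. All genes called in Hox-URE relative to Hox-WT were then 2502 higher and 2545 lower, beside 2789 and 2084, and in URE-AML relative to Hox-URE 3166 higher and 2605 lower, beside 2662 and 2929.

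Replicate numbers are shared by the lines, but no label says what they mark. Same-numbered libraries correlated in their deviations from the line means by 0.0013 to 0.204, and differently numbered ones by -0.163 to 0.0546. Of the 6 libraries compared, 6, 4 and 6 correlated best with their own number in the 3 comparisons, a hint from the data and not from the design. With the replicate block, the members called were 2 higher and 0 lower, 3 higher and 0 lower, and 2 higher and 2 lower, as without it. Among the other family genes the block changed 1 call, that of *Bok* in Hox-URE relative to Hox-WT, and among the transcription factors it gave 3 higher calls in place of 2 for URE-AML relative to Hox-URE. Depth limits *Bcl2a1b*, which had at most 3 counts per library, and *Bmf*, with 10 to 101.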

Other observations

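The following genes were chosen after their values were seen. *Morrbid*, a long noncoding RNA 15.8 kb past *Bcl2l11* that is known to repress it, was at 7.69 ± 0.576 CPM (SD, n = 3) for Hox-WT, 14.6 ± 1.17 for Hox-URE and 21.6 ± 2.17 for URE-AML. It rose in Hox-URE by 0.93 ± 0.13 (log2, SE, adjusted p = 0.000182) and in URE-AML by 1.49 ± 0.13 (SE, adjusted p = 4.42e-06), both against Hox-WT. In URE-AML relative to Hox-URE it differed by 0.56 ± 0.12 (SE, adjusted p = 0.00301), short of 1.5-fold. *Morrbid* and *Bcl2l11* thus both had their highest level in URE-AML, while in Hox-URE relative to Hox-WT *Morrbid* rose and *Bcl2l11* stood at -0.48.

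Near *Pmaip1*, which had 0 counts in every URE-AML library, *Lman1* (436 kb away) had 4988 to 5404 counts per URE-AML library, beside 7412 to 7688 in Hox-WT and 5716 to 8843 in Hox-URE. *Fbxw8*, 9.18 kb from *Hrk*, had 3965 to 4687 counts per URE-AML library, beside 5489 to 5941 in Hox-WT and 3693 to 5100 in Hox-URE. Of 2 other genes looked at, *Chmp1b* (739.8 kb from *Pmaip1*) had 443 to 533 counts per URE-AML library and was lower than in Hox-URE by -0.84 (log2, adjusted p = 0.000426). *2410131K14Rik* (55.8 kb from *Hrk*) had 132 to 220 and was lower by -1.21 against Hox-WT and -0.92 against Hox-URE (adjusted p = 0.000119 and 0.000802). All 4 neighbours were thus counted in the URE-AML libraries, and 2 of them were called lower there than in Hox-URE.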
